A study of Homo sapiens with 10 samples.

Results

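The E690K line of A549 cells was compared with the wild-type (WT) line in 4 of the 10 RNA-sequencing libraries of the series. A549 is an established human lung adenocarcinoma line that is used as a model of the alveolar epithelium. Each line gave 1 untreated library and 1 library after overnight exposure to a VSV-G lentivirus with an ABCA3:GFP fusion (multiplicity of infection 20), so that the lines form 2 pairs matched by vector status. The other 6 libraries are the untreated and transduced cells of a line that the labels call an ABCA3 knockout (KO) and of lines with the L101P or the E292V variant. All 5 lines were grown in DMEM with fetal bovine serum and antibiotics. How the variants were introduced, whether a line is 1 clone and which promoter drives the vector are not given in the sources used here.

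ABCA3 is a transporter of the limiting membrane of lamellar bodies, the organelles in which alveolar type 2 cells pack surfactant phospholipids for secretion. E690K names a lysine in place of glutamate at residue 690. Pathogenic variants of ABCA3 cause surfactant deficiency of the newborn and interstitial lung disease in children, and the series title groups them into type 1 and type 2.

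Total counts were 83544281 and 81249003 in the WT libraries (untreated, then transduced) and 75640815 and 78138131 in the E690K libraries. Levels are given as CPM, read counts relative to the TMM-adjusted size of the library, always in the order untreated, transduced. Mitochondrially encoded genes took 4.27% and 5.24% of WT counts and 5.11% and 5.52% of E690K counts. The 10 listed genes of A549 and lung epithelium summed to 18630 and 17310 CPM in WT and to 19320 and 18840 CPM in E690K. Of the 10 listed alveolar type 2 markers, 5 passed the filter on low counts, 0 were called (1, ABCA3, without the KO pair) and PGC was at 0 in the 4 libraries. They summed to 415.7 and 665.6 CPM in WT and 959.2 and 1052.0 CPM in E690K, most of it from ABCA3 itself. Listed markers of endothelium summed to at most 0.847 CPM in a library, those of leukocytes to at most 36.1 CPM, of fibroblasts to at most 47.2 CPM and of neuroendocrine cells to at most 17.3 CPM (INSM1, GRP and CALCA at 0).

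ABCA3 is annotated on chromosome 16, minus strand, 2275881 to 2340746 (GRCh38, GENCODE release 29). Its level was 356 and 602 CPM in WT and 900.3 and 994 CPM in E690K (95% Wilson intervals 350 to 362, 595 to 610, 891 to 910 and 984 to 1000 CPM, which cover counting error only). Both E690K libraries were thus above both WT libraries, by 2.53 times untreated and 1.65 times transduced, but the fitted log2 fold change of 0.93 had an SE of 0.78 and did not pass the test (edgeR adjusted p = 0.586). Without the KO pair, described next, it did (1.01, adjusted p = 0.0123). Counts over the gene do not separate transcripts of the locus from those of the vector. The EGFP row of the table held 69.7 and 151 CPM in WT and 16.5 and 18.5 CPM in E690K. The untreated libraries were not free of it, and the level with vector was 2.17 times that without in WT against 1.12 times in E690K. The corresponding ratios of ABCA3 were 1.69 in WT and 1.10 in E690K.

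The KO pair went against its labels: ABCA3 stood at 600.3 CPM in the library labelled KO untreated and at 26.0 CPM in the library labelled KO transduced, and EGFP at 37.9 and 0.0497 CPM. That pair enters the comparison of E690K with WT through the error estimate, vector term, scaling and filter that all libraries share. The counts called against WT, over all genes and over the lists below, are given also without it where they change. Counts of list members called against the mean of the other lines include it.

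The comparison of E690K with WT came from 1 edgeR quasi-likelihood fit with terms for line and vector to all 10 libraries. A gene is said to be called, higher or lower, where its Benjamini-Hochberg adjusted p lay under 0.05. SE is the standard error of the fitted log2 fold change. The error here is the departure of the libraries from additive effects of line and vector, with 4 residual degrees of freedom. With 1 line for each genotype, a call describes these 2 lines, and effects of the variant cannot be told apart from other differences between the lines.

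In both pairs the E690K cells had more RNA than WT cells of the laminin chain gene LAMB3 and of laminin-binding integrins, of EGFR, its ligands and the AP-1 subunit FOSL1, and of CEACAM6. They had less of the 3 fibrinogen chains, complement C5, XBP1 and ferritin. Of 17978 genes tested, 967 were called (5.38%), 548 higher (3.05%) and 419 lower (2.33%) in E690K. The sign of all 967 was the same in both matched pairs. The test itself favours this, since it averages the pairs and counts their disagreement as error. Most differences were small. The median absolute log2 fold change of the called genes was 0.605, and 234 of them were at least 2-fold, 109 higher and 125 lower. Without the KO pair 639 genes were called (390 higher, 249 lower), and with its 2 vector labels exchanged 599 were (331 and 268). The count was 1993 without the L101P pair, which changes the pooled error, and it fell to 169 without the untreated E690K library, to 200 higher and 92 lower genes without the transduced one, to 362 without the untreated WT library and 621 without the transduced one. Of the 126 called genes named in the text, 52 were called under each of the 16 alternatives in which they were tested. Without the KO pair the calls of ABCA12, B2M, DDIT3, FDPS, GJB1, KRT19, PEMT, PKM, SFRP4 and TRIB3 were lost, and with its labels exchanged those of ANKRD1, COL7A1, FTH1, HK2, ITGB1, KRT15, LPCAT1, MUC5AC, PXDN and SERPINE2 as well.

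The same fit compared E690K with the mean of KO, L101P and E292V. In that comparison 456 genes were called (2.54%), 303 higher (1.69%) and 153 lower (0.851%); 357 were called without the KO pair, 247 with its labels exchanged and 1617 without the L101P pair. Both comparisons use the 2 E690K libraries, so their values are only set side by side below.

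The 2 pairs share no library, and they showed similar differences. Among 9448 genes that averaged 10 CPM or more, 95 differed by more than 2-fold in the untreated pair, all 95 had the same direction in the transduced pair and 59 were past 2-fold there too. Across these genes the Pearson correlation of the differences was 0.753, as a description, since the pairs share the lines. No gene was called for a vector effect that differed between the lines (0 of 17978, 0.0%, edgeR adjusted p, with 303 genes at an unadjusted p under 0.05; 2 residual degrees of freedom). That test had 1 library for each line and vector state and little power, so its outcome does not show that the pairs agree. The WT libraries were further apart than the E690K libraries. The log2 change with vector had an SD of 0.184 across genes in WT, with 7 genes past 2-fold. In E690K the SD was 0.113, with 0 genes past 2-fold.

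**Figure D1:**
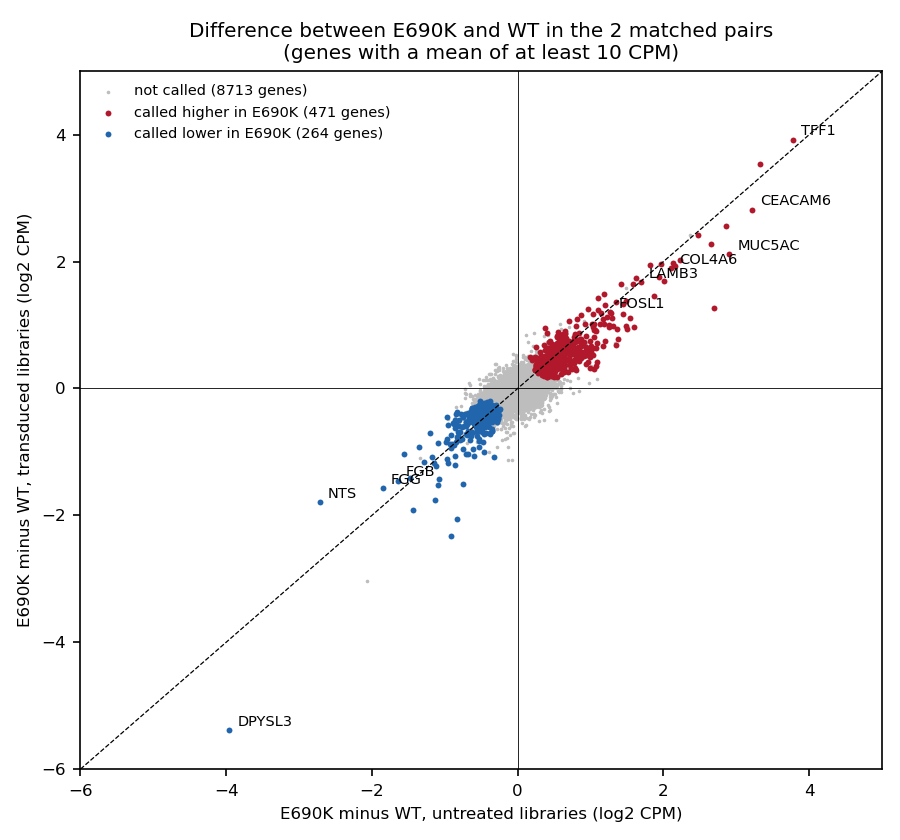
Difference between E690K and WT (log2 CPM) in the untreated libraries (horizontal axis) and in the transduced libraries (vertical axis), 1 point for each of 9448 genes that averaged 10 CPM or more; red points were called higher, blue points called lower and grey points not called. Called genes lie around the dashed line of equal differences, which the test favours, with CEACAM6 far up. DPYSL3 lies far down and off the line, at -3.96 untreated and -5.38 transduced.

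The genes furthest above WT included secreted and surface products of mucous epithelium. TFF1, a trefoil peptide secreted with mucus, was at 2.78 and 2.55 CPM in WT and 38.3 and 39.1 CPM in E690K, which is 3.87 on the log2 scale (SE 0.59, edgeR adjusted p = 0.00263). CEACAM6, a GPI-anchored adhesion molecule of epithelial cells, was the most abundant of them, with 75.0 and 90.7 CPM in WT and 697 and 639.8 CPM in E690K (3.05, SE 0.46, adjusted p = 0.00251). MUC5AC, a gel-forming airway mucin, had 13.9 and 21.5 CPM against 104 and 93.8 CPM (2.59, adjusted p = 0.0182). For each of the 3 genes both E690K libraries lay far above both WT libraries, which naming genes by largest change favours. The same rule of largest change named DCLK1, a microtubule-associated kinase (3.45), the keratin gene KRT17 (2.81), the chloride channel gene ANO1 (2.83), FSTL4 (2.73), the calpain gene CAPN8 (2.66), FOSB (2.47), the matrix glycoprotein gene TNC (2.46) and TRIM29 (2.46). The keratin gene KRT6A, also named by it, had 0.883 and 0.158 CPM in WT and 4.04 and 6.65 CPM in E690K (3.19, SE 0.68, adjusted p = 0.0177), and its value rested on the WT library used: it was 5.55 without the untreated and 2.05 without the transduced one, and KRT6A was not called without either E690K library (adjusted p = 0.138 and 0.114). MUC5AC fell to 1.91 without the untreated E690K library and was not called (adjusted p = 0.244).

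Several of the genes furthest below WT were themselves higher in the transduced than in the untreated WT library. DPYSL3, a cytoskeletal regulator best known from growing axons, was at 65.6 and 201 CPM in WT and at 4.20 and 4.81 CPM in E690K (-4.70, SE 0.49, adjusted p = 0.00026). GFRA1, a co-receptor of the growth factor GDNF, was at 7.53 and 18.7 CPM and 0.187 and 0.473 CPM (-5.34, SE 0.31, adjusted p = 7.7e-06). APBB1IP (-5.01), TINAGL1 (-3.81), FLRT2 (-2.65), the sodium channel gene SCN9A (-2.43) and the retinoic acid receptor gene RARB (-1.99) had that pattern as well. SCN9A was -1.56 without the transduced WT library and not called (adjusted p = 0.0608), and -3.02 without the untreated one. APBB1IP was -5.88 without the untreated and -4.26 without the transduced E690K library, and called in neither case (adjusted p = 0.0516 and 0.101). NTS, the precursor of neurotensin, went the other way in WT, with 40.8 and 20.8 CPM against 6.18 and 5.99 CPM in E690K (-2.33, adjusted p = 0.00164), and was at -1.66 without the untreated WT library. The stress-induced regulator NUPR1 (-2.35), HLA-DMB (-2.33), SERPINA6 (-2.11) and ZNF606 (-2.01) completed the list by size. GDF15, a stress-induced hormone of the TGF-beta family, was among the abundant genes that fell, from 123 and 82.1 CPM to 41.4 and 40.0 CPM (-1.30, adjusted p = 0.00028). Against the mean of KO, L101P and E292V, DPYSL3 (-0.73, adjusted p = 0.508) and GFRA1 (2.34, adjusted p = 0.0964) were not called, nor was TFF1 (1.67, adjusted p = 0.0516). Of the lines in that mean, DPYSL3 was called only against E292V (105 and 444 CPM, -5.68). It was at 1.17 and 1.42 CPM in KO (1.86) and 2.14 and 0.978 CPM in L101P (1.64). CEACAM6 was called against that mean (1.54, adjusted p = 0.0255) but of the 3 lines only against E292V (4.41). It was at 513 and 1024 CPM in KO and 229 and 991 CPM in L101P, levels that overlap those of E690K, and at 37.3 and 23.9 CPM in E292V; the differences of -0.10 from KO and 0.31 from L101P were not called.

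Components of the laminin-332 adhesion system were higher in E690K. Laminin-332, which contains the chains encoded by LAMA3 and LAMB3, anchors epithelial cells to the basement membrane through integrin alpha-6 beta-4 and the hemidesmosome protein collagen XVII. LAMB3 (minus strand of chromosome 1, 209614870 to 209652466) had 42.0 and 47.3 CPM in WT and 135 and 152 CPM in E690K, a difference of 1.68 on the log2 scale (SE 0.18, edgeR adjusted p = 0.00027). The 2 lines did not overlap. The alpha chain was closer to WT: LAMA3 was at 97.7 and 104 CPM in WT and 125 and 126 CPM in E690K (0.32, SE 0.089) and did not pass the test (adjusted p = 0.0627).

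The receptor side was higher too. ITGB4 had 321 and 399.6 CPM in WT and 790.2 and 859 CPM in E690K (1.20, SE 0.14, adjusted p = 0.00052), and its partner ITGA6 78.1 and 94.3 CPM and 156 and 159 CPM (0.88, adjusted p = 0.00063). ITGA3, whose product with that of ITGB1 also binds laminin-332, had 579 and 751 CPM and 1036 and 1150.2 CPM (0.72, adjusted p = 0.00028). ITGB1 itself (0.43) and the collagen receptor chain ITGA2 (0.61) were called higher with smaller changes. COL17A1, at 2.53 and 2.66 CPM in WT and 11.7 and 13.7 CPM in E690K, had a log2 fold change of 2.28 (SE 0.31, adjusted p = 0.00116). Over the list of integrins, 5 of 20 tested members were called higher and 0 lower, also without the KO pair, while the median log2 fold change of 0.044 was near that of all genes (-0.017). The members called were the 5 named.

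Of 33 tested genes of basement membrane and collagens, 10 were called higher and 3 lower (8 and 1 without the KO pair), with a median log2 fold change of 0.33 and 28 members above zero. Type IV collagen chains COL4A5 (22.6 and 25.1 CPM against 52.96 and 55.0 CPM, 1.18) and COL4A6 (14.5 and 18.9 CPM against 62.8 and 70.5 CPM, 2.00), the anchoring-fibril collagen COL7A1 (0.67) and the proteoglycan VCAN (1.35) were among the higher members. PXDN, which crosslinks type IV collagen, was lower, with 10.7 and 31.5 CPM in WT and 5.66 and 6.28 CPM in E690K (-1.63, adjusted p = 0.00185). Its transduced WT library stood above the untreated one. Relative to the mean of KO, L101P and E292V, 5 of the 33 were called higher and 0 lower. Over all genes tested 1.69% were called higher there and 0.851% lower.

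Several keratins of stratified epithelium were higher from a low base. Of 21 tested genes of the keratin and squamous list, 8 were called higher and 0 lower, 7 and 0 without the KO pair, with a median of 0.37. KRT17, a keratin of basal and injured epithelium, had 0.895 and 0.983 CPM in WT and 6.72 and 6.47 CPM in E690K (SE 0.30, adjusted p = 0.00028). KRT16 had 1.81 and 1.44 CPM and 8.13 and 8.18 CPM (2.31), and KRT15 7.77 and 9.40 CPM and 21.9 and 18.6 CPM (1.27). KRT80, an epithelial keratin found early in differentiation, was more abundant, with 254 and 286 CPM and 436 and 502 CPM (0.79, adjusted p = 0.00053). KRT19 (1.03), KRT7 (0.37) and the checkpoint protein gene SFN (0.67) were called as well. KRT8 (0.24, adjusted p = 0.379) and KRT18 (0.24, adjusted p = 0.392), the keratin pair of simple epithelium, were not. Listed markers of airway basal cells summed to 10.6 and 13.3 CPM in WT and 28.8 and 24.3 CPM in E690K, with 1 of 4 tested members called (KRT15), and their part in the keratin result was not tested. How reads shared by KRT6A, KRT16, KRT17 and their near-identical relatives were assigned is not given in the sources used here, so these levels are uncertain.

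**Figure D2:**
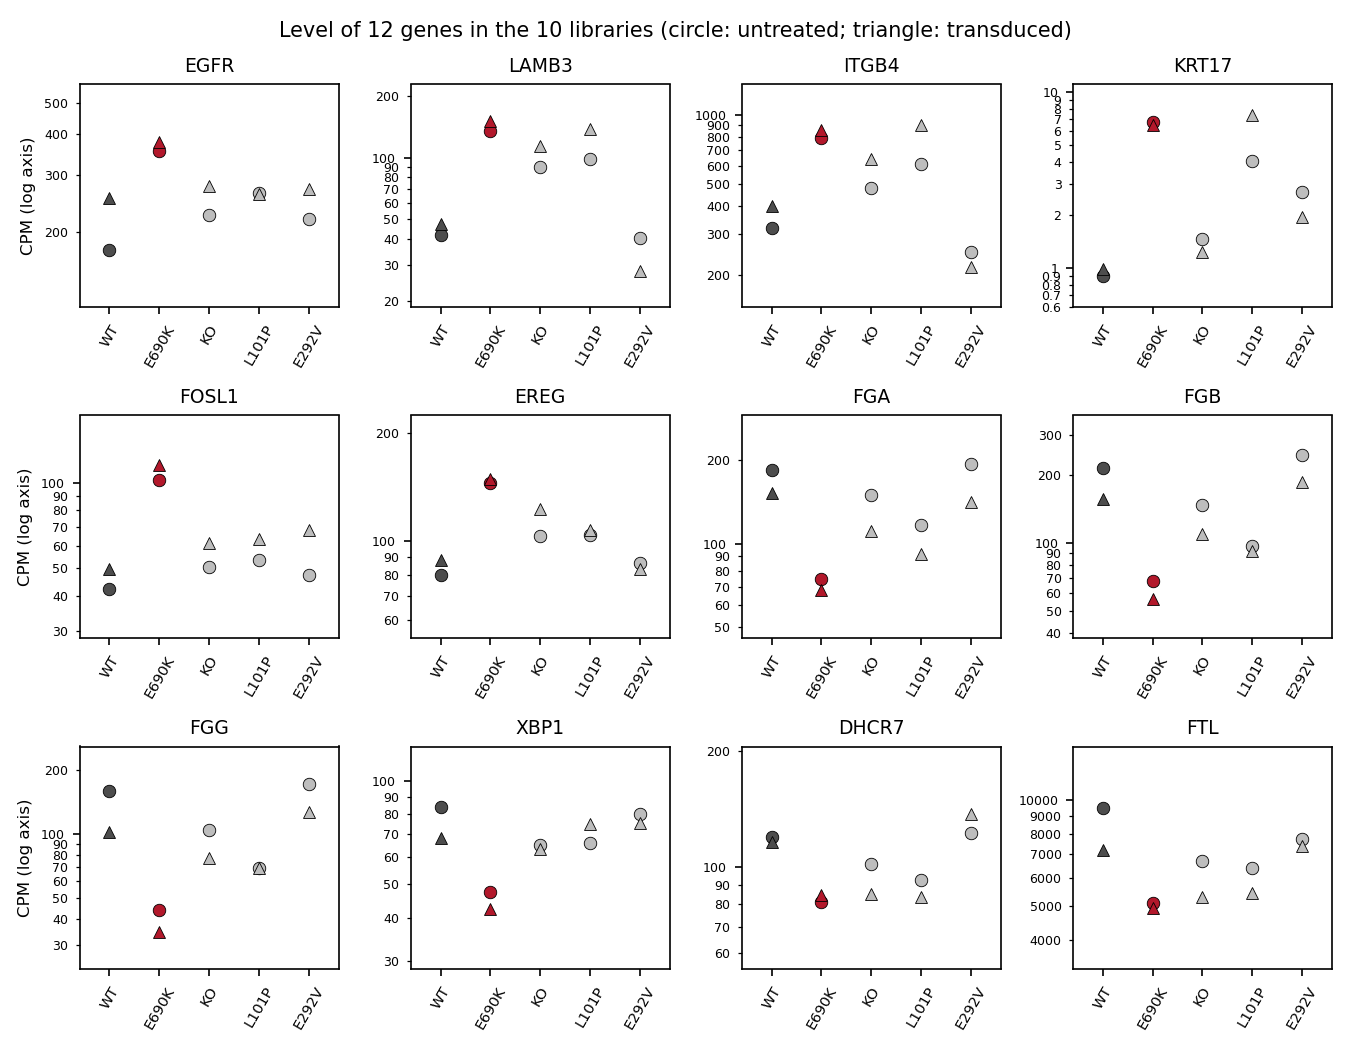
Level of 12 genes (CPM, log axis) in the 10 libraries by line, circles for untreated and triangles for transduced cells; WT is dark grey, E690K red and the other lines light grey. FOSL1 and EREG were highest and FGA, FGB, FGG and XBP1 lowest in the E690K libraries, whereas LAMB3, ITGB4 and KRT17 in L101P, and DHCR7 in the KO and L101P libraries, reached or came near the E690K range.

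The EGF receptor gene and 4 of its ligand genes were higher. The receptor drives proliferation and migration of epithelial cells when bound by ligands shed from the cell surface. EGFR had 177 and 255 CPM in WT and 355 and 379 CPM in E690K (0.78, SE 0.11, edgeR adjusted p = 0.00145). The ligand gene EREG (epiregulin) had 80.0 and 88.2 CPM and 145 and 149 CPM (0.81, SE 0.082, adjusted p = 0.00023), and AREG (amphiregulin) had 102 and 83.8 CPM and 157 and 152 CPM (0.73, adjusted p = 0.00306). TGFA (15.7 and 18.9 CPM against 35.6 and 38.2 CPM, 1.10) and HBEGF (0.96) were called too. Of 27 tested members of the list, 8 were called higher and 0 lower (7 and 0 without the KO pair; median 0.30), among them EPHA2 (0.49) and PHLDA1 (0.55). The related receptor ERBB2 (0.023, adjusted p = 0.931) and DUSP6, a phosphatase induced by ERK signalling (0.022, adjusted p = 0.961), were not called, with SEs of 0.088 and 0.14.

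Genes of 4 AP-1 subunits were higher, FOSB, FOSL1, FOSL2 and JUN. AP-1 factors bind DNA as dimers of FOS and JUN family members. FOSL1 had 42.4 and 49.8 CPM in WT and 102 and 115 CPM in E690K (1.24, SE 0.092, adjusted p = 1.8e-05). FOSL2 had 82.3 and 101.3 CPM and 138 and 153 CPM (0.67, adjusted p = 0.00047), and JUN 50.6 and 66.6 CPM and 93.3 and 98.9 CPM (0.72, adjusted p = 0.00175). FOS, by contrast, was at 2.10 and 2.53 CPM and 1.85 and 2.84 CPM, with overlapping ranges. EGR1, a rapidly induced zinc-finger factor, rose from 1.53 and 1.68 CPM to 8.43 and 8.31 CPM (2.39, SE 0.26, adjusted p = 0.00028). Its relative EGR4 had 0 counts in both WT libraries and 28 and 36 in the E690K libraries. Set against a level of 3 counts in each WT library, this was 11.7-fold higher, which is not a lower bound. Of 28 tested immediate early genes, 10 were called higher and 0 lower, also without the KO pair. Against the mean of KO, L101P and E292V, 8 were called higher, with 1.69% of all genes tested called higher there.

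The letters of the AP-1 site were looked for in the RefSeq promoter windows, 250 bases before to 50 after each start (GRCh38.p14), on both strands as TGANTCA. They stood in 9.91% of the 686 windows of genes called higher, 5.89% of the 526 windows of genes called lower, 5.61% of the 17312 windows of tested genes and 7.71% of all 35116 windows. The windows of 1 gene overlap, and a match is not a bound site. LAMB3, whose change was among the largest of the abundant genes, had the letters in 1 of its 3 listed windows. Its 250 bases before that start are shown at chr1:209651375-209651624, minus strand, 5′ to 3′, with the match in capitals, 67 bases before the start:
LAMB3: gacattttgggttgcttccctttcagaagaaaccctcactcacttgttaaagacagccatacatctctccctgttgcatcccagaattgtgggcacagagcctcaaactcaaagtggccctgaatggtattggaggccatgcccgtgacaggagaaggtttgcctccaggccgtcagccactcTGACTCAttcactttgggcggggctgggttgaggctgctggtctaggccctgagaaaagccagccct

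The 3 fibrinogen chain genes were lower in E690K. Fibrinogen, the precursor of fibrin in clots, is made mainly by the liver and also by lung epithelial cells, and its 3 chain genes lie side by side on chromosome 4 (FGB from 154562956 to 154571086, FGA from 154583126 to 154590766 and FGG from 154604134 to 154612967). FGB had 213 and 155 CPM in WT and 67.9 and 56.7 CPM in E690K (-1.55, SE 0.093, edgeR adjusted p = 4.9e-06). FGG had 159 and 103 CPM and 44.1 and 34.6 CPM (-1.72, SE 0.12, adjusted p = 1.2e-05), and FGA 183 and 152 CPM and 74.9 and 68.4 CPM (-1.22, SE 0.086, adjusted p = 1.2e-05). Each chain was lower in both E690K libraries than in any of the other 8, and each was called against every other line. FGG was called against each of the 3 lines left without the KO pair, but FGA and FGB were not, and with the KO labels exchanged none of the 3 chains was called against every line. All 3 stayed called against WT in both. The complement gene C5 (82.8 and 81.9 CPM against 38.1 and 34.9 CPM, -1.18, SE 0.079) was lower. CD55, a membrane protein that shields cells from complement, was higher, with 56.7 and 51.5 CPM in WT and 126 and 118 CPM in E690K (1.17, adjusted p = 0.016). Of 18 tested members of the complement, fibrinogen and serpin list, 5 were called lower and 2 higher, the second being the protease inhibitor gene SERPINE2 (0.68), and the median was -0.39. The counts were the same without the KO pair. In the comparison with the other 3 lines, 5 were lower and 1 higher, with 0.851% and 1.69% of all genes tested called so there.

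The promoters of FGA and FGB are shown because both genes moved together and their windows held 2 further searched motifs, a C/EBP site as TTGCNNAA and an HNF1 half-site as GTTAAT, both strands. C/EBP and HNF1 proteins are liver-enriched transcription factors known to act on fibrinogen genes. The capitals mark the C/EBP letters first and the HNF1 letters second, 141 and 52 bases before the FGA start (chr4:154590743-154590992, minus strand) and with the HNF1 letters 51 bases before the FGB start (chr4:154562730-154562979, plus strand, the first of 2 listed starts):
FGA: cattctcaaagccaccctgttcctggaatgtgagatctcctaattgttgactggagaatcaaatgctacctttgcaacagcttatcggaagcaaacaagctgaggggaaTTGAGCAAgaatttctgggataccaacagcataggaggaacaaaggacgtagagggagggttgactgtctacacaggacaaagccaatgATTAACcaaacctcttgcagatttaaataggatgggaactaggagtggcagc
FGB: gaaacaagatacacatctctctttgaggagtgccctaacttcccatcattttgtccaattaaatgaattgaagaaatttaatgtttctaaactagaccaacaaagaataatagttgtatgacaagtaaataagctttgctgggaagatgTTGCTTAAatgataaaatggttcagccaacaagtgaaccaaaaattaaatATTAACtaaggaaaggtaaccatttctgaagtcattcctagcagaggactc
The FGG window held neither. Over all windows the C/EBP letters stood in 10.5% and the HNF1 letters in 6.88%, over tested genes in 7.84% and 4.69%, and over genes called lower in 9.89% and 5.51%. The 2 other motifs searched, the cyclic AMP response element TGACGTCA and the sterol response element TCACNCCAC, stood in 2.55% and 1.04% of the windows of tested genes, 3.21% and 0.729% of those called higher and 1.14% and 0.76% of those called lower.

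MUC5AC was the only mucin gene called. Of 21 tested mucin, trefoil and goblet cell genes, 3 were called higher and 0 lower, also without the KO pair: MUC5AC, TFF1 and the mucin glycosyltransferase gene GALNT5 (11.8 and 13.99 CPM against 28.2 and 28.0 CPM, 1.13). MUC5B had 202 and 271 CPM in WT and 459 and 434 CPM in E690K, higher in both pairs, but with an SE of 0.37 on a log2 fold change of 0.94 it was not called (adjusted p = 0.18). The listed markers of airway secretory cells, which include MUC5AC, summed to 216.7 and 293.6 CPM in WT and 564.0 and 528.1 CPM in E690K, with SCGB3A1 and SCGB3A2 at 0 in the 4 libraries, and their part in the result was not tested. Of 6 tested CEACAM genes CEACAM6 was the 1 called. CEACAM5 (3.60 and 3.10 CPM against 18.7 and 16.7 CPM, 2.42, adjusted p = 0.0707) was above WT in both pairs without passing the test. CEACAM5 and CEACAM6, and MUC5AC and MUC5B, share sequence, so that their counts could be split between them. MUC5AC was not called against the mean of the other 3 lines (0.53, adjusted p = 0.636).

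Some genes of cholesterol synthesis were lower by small amounts. Cells make cholesterol from acetyl-CoA through a chain of enzymes whose genes respond together to the transcription factor SREBP2. Of 25 tested members, 6 were called lower and 0 higher (5 and 0 without the KO pair), 24 lay below zero, and the median log2 fold change was -0.30. DHCR7, the last enzyme of 1 branch, had 119.9 and 116 CPM in WT and 81.3 and 84.6 CPM in E690K (-0.51, SE 0.10, edgeR adjusted p = 0.0087). INSIG1, which holds SREBPs in the endoplasmic reticulum when sterol is plentiful, had 35.9 and 40.6 CPM and 24.9 and 26.5 CPM (-0.57, adjusted p = 0.016). ACAT2 (-0.45), FDFT1 (-0.41) and FDPS (-0.37) were called too. Against the mean of KO, L101P and E292V, 3 of the 25 were lower, with 0.851% of all genes tested called lower there. Over the processing alternatives and left-out libraries the number called ranged from 0 to 11, and the median from -0.31 to -0.26.

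**Figure D3:**
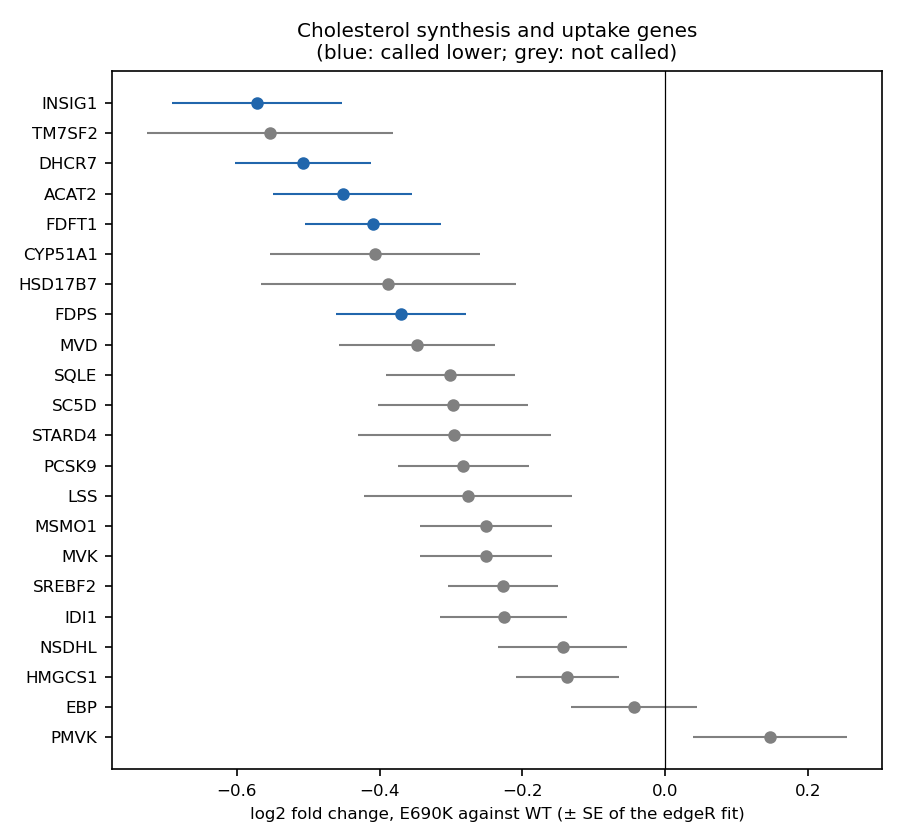
Log2 fold change of E690K against WT (horizontal axis) for 22 of the 25 tested cholesterol synthesis and uptake genes, with bars of 1 SE from the edgeR fit; blue points were called lower and grey points not called. The points lie left of zero except PMVK, and EBP lies at zero within 1 SE.

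Other lipid genes differed singly. Among 10 tested genes of cholesterol efflux and targets of the sterol receptor LXR, ABCA1, the cholesterol exporter, had 10.3 and 16.6 CPM in WT and 5.48 and 4.42 CPM in E690K (-1.41, SE 0.27, adjusted p = 0.00892), and APOC1 18.8 and 15.3 CPM and 6.72 and 5.73 CPM (-1.45, adjusted p = 0.00091). These were the 2 called of the 10, and 3 were called lower without the KO pair. The fatty acid desaturase genes SCD (629 and 734 CPM against 375 and 380.0 CPM, -0.85, adjusted p = 0.00112) and FADS2 (452 and 467 CPM against 333 and 336 CPM, -0.46) were lower. PEMT, which makes phosphatidylcholine by methylation, was lower too (-0.54). LPCAT1, which remodels surfactant phosphatidylcholine, was higher, with 109.5 and 125 CPM and 144 and 156 CPM (0.36, adjusted p = 0.011), as was the elongase gene ELOVL1 (0.40). Of 28 fatty acid and phospholipid genes 2 were called higher and 3 lower (2 and 2 without the KO pair), with a median of 0.0040. Of 13 tested lipid-handling ABC transporters only ABCA1 and the keratinocyte lipid transporter gene ABCA12 (1.08 and 1.65 CPM against 2.92 and 2.50 CPM, 1.01) were called.

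Surfactant protein genes were at or near the detection limit. SFTPA1 had 0, 4, 0 and 0 counts in untreated WT, transduced WT, untreated E690K and transduced E690K, SFTPA2 had 0, 0, 0 and 10, and SFTPB had 6, 0, 4 and 6. SFTPC had 22, 16, 12 and 4 counts and SFTPD 28, 28, 22 and 36, and neither was called (adjusted p = 0.705 and 0.932). SFTPA1 and SFTPA2 are near-identical copies. Of 14 tested surfactant and lamellar body genes, LPCAT1 and DMBT1, a secreted scavenger protein gene (0.118 and 0.219 CPM against 2.03 and 2.42 CPM), were called higher and HHIP, an inhibitor of hedgehog signalling, lower (0.553 and 1.52 CPM against 0.0401 and 0.0789 CPM). The counts were 3 higher and 1 lower without the KO pair.

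The ferritin genes and haem oxygenase, which store and release iron and are targets of the antioxidant factor NRF2, were lower. FTL, the ferritin light chain, had 9450.4 and 7211 CPM in WT and 5088 and 4932 CPM in E690K (-0.72, SE 0.088, edgeR adjusted p = 0.00061). FTH1 had 2528 and 1992 CPM and 1471 and 1501 CPM (-0.59, adjusted p = 0.00903), and HMOX1 391 and 382 CPM and 199.97 and 219 CPM (-0.88, adjusted p = 0.0232). With PIR (-0.46) these were the 4 called of 28 tested NRF2 targets, 0 higher, and the 4 were also called without the KO pair. NQO1, a standard NRF2 target, was not called (-0.17, adjusted p = 0.34). Against the mean of KO, L101P and E292V, FTL was lower (-0.36, adjusted p = 0.0205), called of the 3 lines only against E292V, but FTH1 (-0.14, adjusted p = 0.559) and HMOX1 (-0.13, adjusted p = 0.783) were not called. FTL and FTH1 have many processed pseudogenes that can take their reads.

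Of 27 tested genes of the unfolded protein response, 5 were called lower and 0 higher, 3 without the KO pair, and the median of -0.041 was near that of all genes. XBP1, the transcription factor spliced by IRE1, had 83.9 and 68.3 CPM in WT and 47.3 and 42.4 CPM in E690K (-0.76, SE 0.10, adjusted p = 0.00112). The others, DDIT3 (-0.66), TRIB3 (-0.44), ASNS (-0.57) and CHAC1 (-0.98), are induced by ATF4 in amino acid shortage. HSPA5, the main endoplasmic reticulum chaperone, was at 558 and 608 CPM and 613 and 624 CPM and was not called (0.084, adjusted p = 0.673). Of the 27, only XBP1 was called against the mean of KO, L101P and E292V (-0.66, adjusted p = 0.00163). Over all genes tested 2.54% were called there.

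Of 32 tested cell cycle genes 11 were called higher and 0 lower (7 and 0 without the KO pair), 27 lay above zero and the median was 0.23. MKI67 had 609 and 745 CPM in WT and 924 and 935 CPM in E690K (0.46, adjusted p = 0.00895), TOP2A 726 and 819 CPM and 1093 and 1050.1 CPM (0.48), and RRM2, a subunit of ribonucleotide reductase, 96.6 and 95.2 CPM and 152 and 159 CPM (0.70, SE 0.089, adjusted p = 0.00084). CCND1, which drives entry into the cycle, had a log2 fold change of 0.41. In bulk RNA, more cells in division and more RNA of these genes in each cell cannot be told apart. Against the mean of KO, L101P and E292V, 2 of the 32 were called higher, with 1.69% of all genes tested called higher there. Among 31 tested hypoxia and glycolysis genes, the glucose transporter SLC2A1 (176 and 182 CPM against 265 and 268 CPM, 0.57), phosphofructokinase PFKP (527 and 511 CPM against 823 and 880.0 CPM, 0.71, adjusted p = 0.00022) and PKM (0.26) were higher, and hexokinase HK2 (1.34 and 1.29 CPM against 0.268 and 0.499 CPM, -1.84) and ADM (-0.97) lower. In all 4 of the 31 were called higher and 2 lower (3 and 2 without the KO pair), and the median was -0.034.

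Of 24 tested chemokine, cytokine and NF-kB target genes, 6 were called higher and 2 lower (5 and 1 without the KO pair), with a median of 0.31. CXCL8, a neutrophil attractant, was low in every library, at 0.612 and 0.680 CPM in WT and 3.32 and 3.31 CPM in E690K (2.36, SE 0.31, edgeR adjusted p = 0.00103). BIRC3 (48.0 and 51.5 CPM against 70.9 and 65.1 CPM, 0.45) and RELB (0.53) were higher and the macrophage growth factor gene CSF1 lower (41.1 and 46.3 CPM against 23.7 and 26.4 CPM, -0.80). Interferon-stimulated genes gave 1 call in each direction of 24 tested (higher OAS3, 0.58). Antigen presentation genes gave 1 lower of 15 (B2M, -0.36), which was lost without the KO pair. These were 8.33% and 6.67% of the lists, with 5.38% called over all genes tested.

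Several secreted regulators of WNT, activin and BMP signals were higher. WNT7A had 0.765 and 0.826 CPM in WT and 3.37 and 4.50 CPM in E690K (2.28, SE 0.33, adjusted p = 0.00197), and WNT9A 7.85 and 7.36 CPM and 18.1 and 18.3 CPM (1.26). LGR6, a receptor that amplifies WNT signals (4.44 and 4.76 CPM against 19.9 and 18.3 CPM, 2.06), and the WNT antagonist SFRP1 (25.8 and 28.6 CPM against 56.6 and 58.1 CPM, 1.08) were higher, and SFRP4 was lower (-1.30). The WNT list had 5 members called higher and 2 lower of 30 tested (5 and 1 without the KO pair), with a median of 0.0098. FST (follistatin), which binds activins, had 4.46 and 4.16 CPM and 15.7 and 16.1 CPM (1.88, SE 0.25, adjusted p = 0.00117). GREM1, a BMP antagonist, had 74.5 and 110.3 CPM and 158 and 181 CPM (0.90, adjusted p = 0.00171), and the latent TGF-beta binding protein genes LTBP1 (0.65) and LTBP2 (0.73) were higher. Of 30 tested TGF-beta and BMP genes 7 were called higher and 0 lower (6 and 0 without the KO pair; median 0.18).

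The mesenchymal list split. Of 24 tested, 6 were called higher and 4 lower (4 and 4 without the KO pair), with a median of -0.16. Tenascin C (TNC) had 4.71 and 7.07 CPM in WT and 29.7 and 34.3 CPM in E690K, and the receptor kinase gene AXL 185 and 278 CPM and 353 and 402 CPM (0.73), both higher. The transcription factor gene SNAI2 was higher (0.753 and 1.12 CPM against 2.57 and 2.79 CPM, 1.55), and TWIST1 lower (4.51 and 4.61 CPM against 1.59 and 1.91 CPM, -1.39). THY1, a surface marker of fibroblasts, was lower (-1.04). Listed fibroblast markers summed to 28.5 and 47.2 CPM in WT and 25.2 and 35.6 CPM in E690K, with 1 of 5 tested members called (LUM, higher; 0 without the KO pair) and COL1A2 at 0, and their part in the result was not tested. Targets of the YAP and TEAD regulators also went both ways, with 5 of 24 called higher, among them NT5E (61.4 and 78.5 CPM against 152 and 155 CPM, 1.16, adjusted p = 0.00049) and MYOF (0.67), and 1 lower, ANKRD1 (7.34 and 16.8 CPM against 3.53 and 3.55 CPM, -1.61, and -2.23 without the untreated E690K library). Without the KO pair the counts were 4 and 1.

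In the neuronal and neuroendocrine list 1 of 23 tested was called higher, DCLK1, and 3 lower, DPYSL3, GFRA1 and NRXN3 (1.54 and 4.99 CPM against 0.0268 and 0.131 CPM). Among branched-chain amino acid and urea cycle genes CPS1, the first enzyme of the urea cycle, was lower, with 26.0 and 27.8 CPM in WT and 12.2 and 9.61 CPM in E690K (-1.33, adjusted p = 0.00366). No member was called among 24 p53 response genes (median -0.071), 21 NOTCH genes (-0.0054), 6 metallothioneins (0.15), 13 zinc-finger genes of chromosome 19p12 (-0.24) or 13 mitochondrially encoded genes (0.18).

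**Figure D4:**
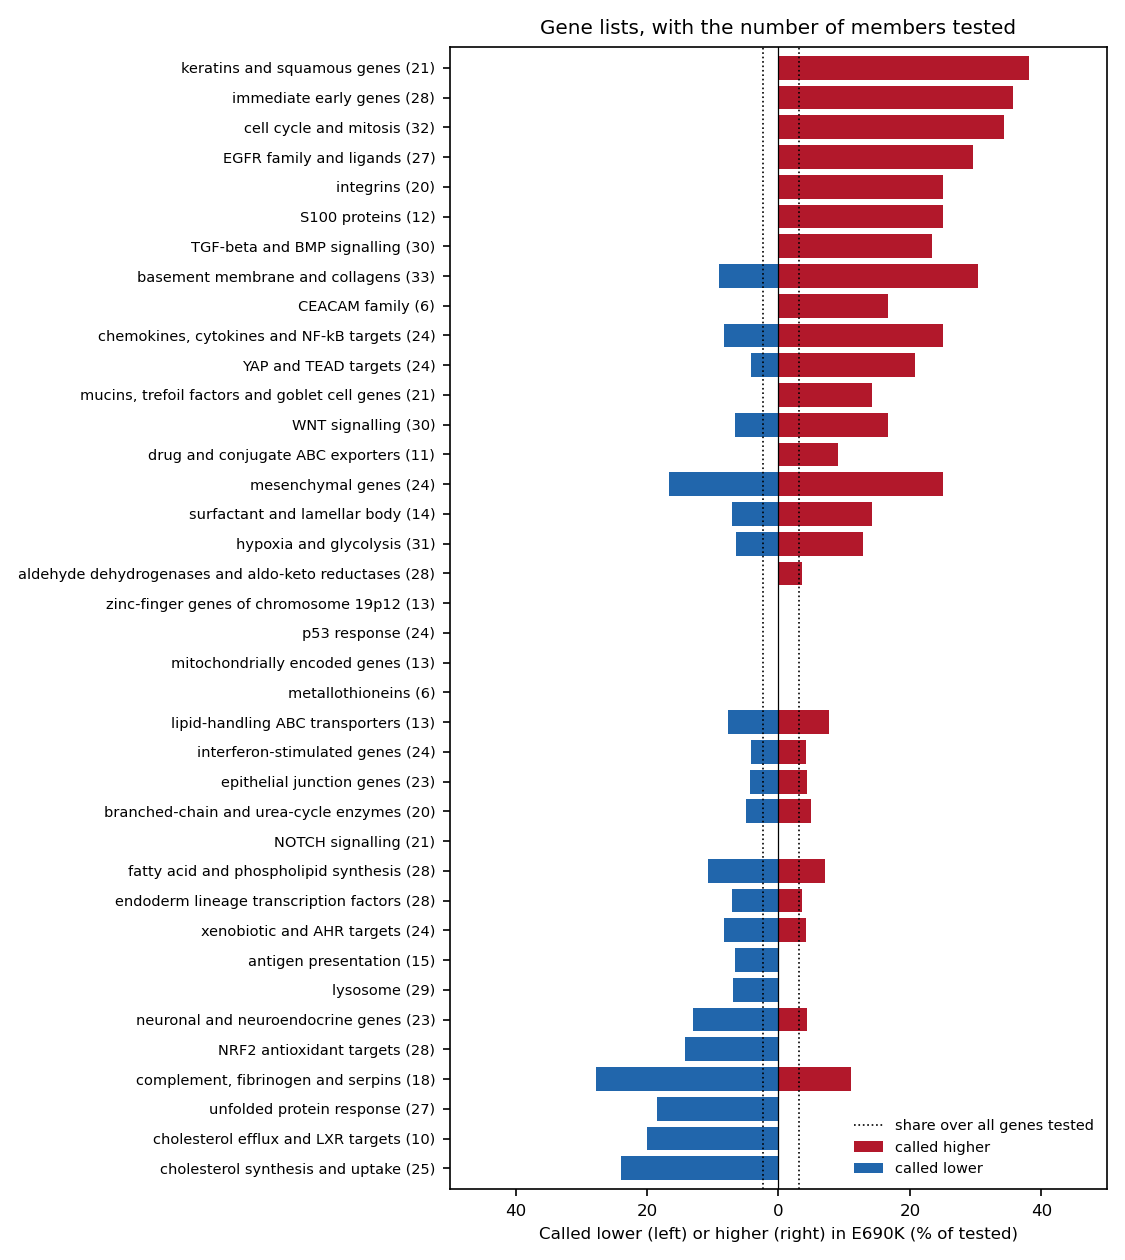
Share of the tested members of each gene list called higher (red, to the right) or lower (blue, to the left) in E690K than in WT, with the number tested in brackets; dotted lines mark the shares over all genes tested, 3.05% higher and 2.33% lower. The keratin, immediate early, cell cycle and basement membrane lists reach furthest right, and cholesterol synthesis and complement with fibrinogen furthest left.

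Differences from WT and from the mean of KO, L101P and E292V are set side by side here for 4 genes of these groups. LAMB3 differed by 1.68 from WT and by 0.95 from the mean of the other 3 (adjusted p = 0.00214). Of the 3, LAMB3 was called only against E292V (2.06), with differences of 0.50 from KO (adjusted p = 0.207) and 0.29 from L101P (adjusted p = 0.6002). FGB differed by -1.55 and -1.14 (adjusted p = 2.8e-05). DHCR7 differed by -0.51 and -0.30 (adjusted p = 0.0716) and ABCA1 by -1.41 and -0.42 (adjusted p = 0.425), and these were not called against that mean. Of the 3 lines, both were called only against E292V. DHCR7 differed by -0.65 from E292V, -0.17 from KO and -0.085 from L101P. ABCA1 differed by -1.64 from E292V, 0.25 from KO and 0.11 from L101P.

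Called in the same direction against each of the 4 other lines were 48 genes (0.267%), 24 higher (0.133%) and 24 lower (0.133%), in tests that share the E690K libraries. Ranked by their smallest difference from any line, the first higher genes included WNT7A, MARCH4, FST, STC1 and FOSL1. MARCH4, a membrane ubiquitin ligase gene, had 5.12 and 14.8 CPM in WT and 33.4 and 35.8 CPM in E690K, and differed by 1.95 from WT, 1.80 from KO, 1.56 from L101P and 1.37 from E292V. STC1, a secreted glycoprotein hormone gene, had 8.55 and 6.85 CPM and 18.4 and 18.4 CPM and differed by 1.25 from WT, 1.53 from KO, 1.00 from L101P and 1.23 from E292V. FOSL1 differed by 1.24 from WT, 0.97 from KO, 0.90 from L101P and 0.93 from E292V. The corresponding lower genes were GJB1, SERPINA6, HLA-DMB, LGALS2, NCMAP and DACT2. SERPINA6, which encodes the corticosteroid carrier of plasma, had 6.29 and 5.03 CPM in WT and 1.20 and 1.39 CPM in E690K and differed by -2.11 from WT, -2.22 from KO, -1.51 from L101P and -2.18 from E292V. HLA-DMB, a chain of the peptide loader of class II antigens, had 11.8 and 8.95 CPM and 2.02 and 2.10 CPM and differed by -2.33 from WT, -2.00 from KO, -1.46 from L101P and -1.85 from E292V. GJB1 (connexin 32), LGALS2 (a galectin), NCMAP and DACT2 were all under 6 CPM in WT. GJB1 differed from WT by -2.17, but by -1.22 without the untreated WT library (not called, adjusted p = 0.428) and by -2.84 without the transduced one. Without the KO pair 12 genes were called against the 3 lines left, 11 of them among the 48, and with the KO labels exchanged 12, all among the 48. FOSL1, C5 and SERPINA6 were called in both, FGG in the first and LGALS2 in the second. Without the L101P pair the count was 367.

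**Figure D5:**
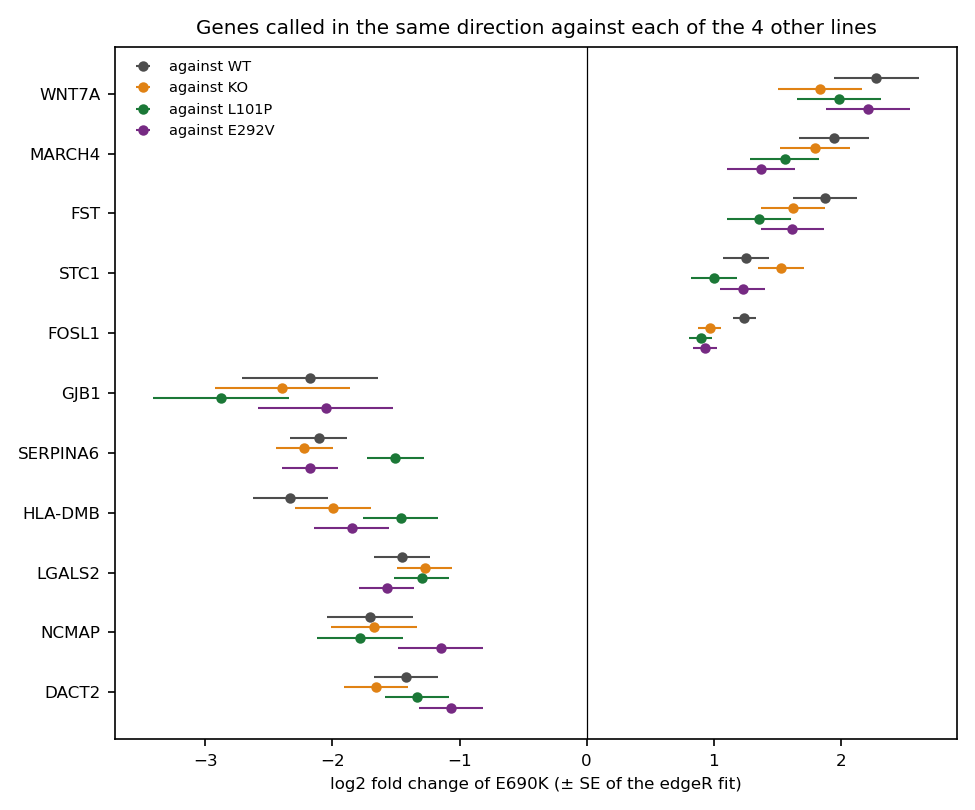
Log2 fold change of E690K against each of the 4 other lines (horizontal axis, colours by line, bars of 1 SE from the edgeR fit) for 5 higher and 6 lower genes, ranked by their smallest difference from any line, among the 48 called against each line. FOSL1 and STC1 differ by similar amounts from every line.

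Changes along whole chromosome segments were looked for as shifts of neighbouring genes. Of 217 windows of 10 Mb with at least 20 genes, 0 had medians beyond 0.2 in the same direction in both pairs (0 of 187 with genes of at least 10 CPM, 0 of 207 with windows of 5 Mb). The window furthest from zero was chromosome 19 from 50 to 60 Mb, with 135 genes, medians of -0.18 and -0.14, 0 genes called higher and 7 lower. Smaller segments and balanced changes were not examined.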

How the data were processed

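The 4 libraries compared are the untreated and transduced WT and E690K libraries, and the fit used all 10. The deposited values are whole-number counts per gene (33551 rows); per the submitters' processing notes the authors used featureCounts, Subread, edgeR and limma with GRCh38, with no versions given. Of the values from 1 to 10, 81.4% were even, as where both mates of a pair are counted, so intervals rest on counts divided by 2. The 11 rows of viral sequences entered no result. Strand use and the treatment of shared reads are not given in the sources used here.

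Genes were kept by filterByExpr and scaled by TMM in edgeR 4.0.16 (R 4.3.3), and tested with glmQLFit and glmQLFTest on line plus vector, adjusted after Benjamini and Hochberg with calls under 0.05. The method was tested on simulated data with a fixed spread, no vector effect and changes in E690K only. That test does not cover differences among the other lines. Labels give no replicates within a line and vector state, so p-values measure only the spread between these libraries, which may be technical. The variance between the 2 libraries of a line was 13.3 times (WT) and 4.73 times (E690K) the counting noise, so neither pair is a duplicate of 1 library. Alternatives were other scaling, filters, DESeq2 1.42.0, limma 3.58.1 and left-out libraries. Where the libraries of 1 side had 3 counts or fewer, folds are set against 3 counts per library. Such folds are not lower bounds.

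The members, gene lists and tests were chosen with earlier results of these data known. Genes named are the 12 higher and 12 lower with the largest change among those called, with an average log2 CPM of at least 1 and 1 direction in both pairs; the 4 and 4 largest of at least 50 CPM; up to 4 members of each list with the smallest p; the 6 and 6 largest among genes called against every line; and ABCA3, EGFP, tdTomato and the SFTP genes. Outside that rule, chosen after their values were seen, are LAMA3, COL4A5, COL4A6, COL7A1, ITGB1, KRT8, KRT18, TGFA, HBEGF, FOS, JUN, ERBB2, DUSP6, EPHA2, CD55, SERPINE2, FDFT1, FDPS, PEMT, NQO1, DDIT3, HSPA5, HK2, PKM, SFRP4, ANKRD1, TWIST1, PXDN, EGR4 and SNAI2. Positions come from GENCODE release 29, which held 98.4% of the row names, and promoters from RefSeq (GRCh38.p14). A few genes that meet the rule are not reported here.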

Additional observations from a re-analysis of the deposited data

Results flagged for a closer look

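Counts of the tdTomato reporter, which the labels of these lines do not name, were found in the 4 libraries. They were 324 in untreated WT, 236 in transduced WT, 552 in untreated E690K and 656 in transduced E690K. As a level these were 3.81 and 2.87 CPM in WT and 7.38 and 8.62 CPM in E690K.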

How the results depend on the processing

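The number of genes called against WT (967) was 639 without the KO pair, 599 with the vector labels of the KO pair exchanged, 1993 without the L101P pair, 2378 with the E690K and WT libraries only (1 residual degree of freedom), 1463 with the DESeq2 Wald test and 1659 with no filter on low counts. Leaving out 1 of the 4 libraries gave 169 to 621; the lone library left for that line is then assumed to vary like the other groups. Other scaling, a filter of 10 counts in every library, limma voom, counts divided by 2, no E292V pair and no vector term gave 723 to 1054. Within the gene lists the numbers called moved widely over the alternatives as well, among them those of the cell cycle, keratin and TGF-beta lists.

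Against the mean of KO, L101P and E292V (456), the count was 1008 with no filter, 1617 without L101P and 247 with the KO labels exchanged. Against each of the other lines (48) it was 142 with no filter, 367 without L101P, and 12 both without KO and with its labels exchanged. The vector effect that differed between the lines gave 0 genes except 5 without the E292V pair. The median log2 fold change of all genes stayed between -0.025 and 0.0037. None of the 126 called genes named in the text changed direction under an alternative, and the endothelial marker list had no member left with a minimum of 10 counts.

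Depth limits the surfactant protein genes, at 36 counts or fewer, and EGR4. The labels give no replicate numbers. Libraries of different lines are matched only by vector state, which the fit holds as a term; without that term 723 genes were called.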

Other observations

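Among genes of S100 proteins, 3 of 12 tested were called higher in E690K (S100A3, S100A10 and S100A16) and 0 lower, with a median log2 fold change of 0.41, but 1 was called without the KO pair. Of 28 tested endoderm lineage transcription factors 1 was called higher and 2 lower (1 and 1 without the KO pair), with a median of -0.28, and of 29 lysosome genes 0 were called higher and 2 lower, also without the KO pair. Of 23 epithelial junction genes 1 was called in each direction and 0 without the KO pair. Xenobiotic and AHR targets gave 1 higher and 2 lower of 24 tested (1 and 0 without the KO pair), and aldehyde dehydrogenases and aldo-keto reductases 1 higher of 28. Of 11 drug and conjugate ABC exporters 1, ABCC3, was called higher, and 0 without the KO pair. No alveolar type 1 marker (0 of 5 tested) and no ciliated cell marker (0 of 7) was called. Over all genes tested 5.38% were called, 3.05% higher and 2.33% lower. The lysosome list (6.9% called) and the dehydrogenase and reductase list (3.57%) lay near that share.

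Some genes had no more than 3 counts in either library of 1 line. Their folds are set against 3 counts per library and are not lower bounds. FGF5, a growth factor, had 56 and 118 counts in WT and 0 in both E690K libraries (24.4-fold lower). TRHDE, a peptidase of neuropeptides, had 68 and 149 against 0 (30.3-fold lower). The endothelial and blood transcription factor gene FLI1 had 40 and 57 counts against 0 (14.3-fold lower), and the cadherin gene CDH6 20 and 44 against 0 (8.91-fold lower). These genes were chosen after their values were seen.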
